A study of Mus musculus with 16 samples.

Results

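The cathepsins described here are 10 genes measured in macrophages sorted from mouse pancreas: Ctsa, Ctsb, Ctsc, Ctsd, Ctse, Ctsh, Ctsk, Ctsl, Ctss and Ctsz. They were taken by gene name from the array annotation, without a cutoff on their values. The set, like the gene lists below, was chosen with earlier results of these data known. Counts set beside the share of all genes are therefore descriptive. All 10 were measurable, out of 24307 genes tested. RNA was read on 16 one-color Agilent arrays in 4 groups of sorted cells. Macrophages from pancreatic tumors gave 5 YFP+ and 5 YFP- arrays, and macrophages from normal pancreas gave 3 YFP+ and 3 YFP- arrays. All mice were female, of the C57/B6 strain and 8 to 10 weeks old. The sample labels leave the genotype as not provided. The design text names wild-type mice, KPC mice (a genetic model of pancreatic cancer) and FLT3-CRE/LSL-YFP mice, whereas the treatment protocol speaks of implanted tumors, so the tumor model of these arrays is not settled. In FLT3-CRE/LSL-YFP mice, Cre recombinase is driven by Flt3, which early blood progenitors express as a cytokine receptor, and it switches on a yellow fluorescent protein permanently. YFP+ macrophages thus carry a mark of Flt3 history that YFP- macrophages lack. Nothing in the labels says which arrays come from the same animal, so p-values measure the spread between these samples.

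Cathepsins are proteases of the endosome and lysosome, made as inactive precursors and sorted there largely by mannose 6-phosphate receptors. Most are cysteine proteases of the papain family (Ctsb, Ctsc, Ctsh, Ctsk, Ctsl, Ctss and Ctsz). Ctsd and Ctse are aspartic proteases, and Ctsa is a serine carboxypeptidase. Macrophages use them to digest phagocytosed proteins, to trim the invariant chain during antigen presentation by MHC class II and, when secreted, to break down matrix. Cathepsin K, known best as the main bone collagen protease of osteoclasts, cuts triple-helical collagen. Cathepsin E lies mostly outside lysosomes and is also known from gastric and other epithelia, neoplastic pancreatic ducts and immune cells.

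Promoter sequences are shown for 5 members, chosen because they cover neighbouring genes that differed in the arrays and the scanned members that hold an E-box. Ctsk and Ctss lie on chromosome 3, separated by 17398 bases with 1 annotated gene between them, and Ctsk changed between the tissues where Ctss did not pass the test. Ctsd, Ctsl and Ctsa are the scanned members with the E-box core CACGTG, a motif bound by the MiT and TFE transcription factors that regulate lysosomal genes. The RefSeq promoter table (build GRCm38.p6) held 7 of the 10 members. It lacked Ctsb, Ctse and Ctsh, which were not scanned. Each sequence is the 250 bases before an annotated start, read 5' to 3' on the strand of the gene. Capitals mark the core CACGTG in Ctsd, Ctsl and Ctsa, and GAGGAA, a core of sites for the myeloid factor PU.1, in Ctsk and Ctss (TTCCTC is the same core on the other strand). The intervals are chr3:95498960-95499209 for Ctsk, chr3:95526536-95526785 for Ctss, chr7:142387828-142388077 for Ctsd on the minus strand, chr13:64370521-64370770 for Ctsl on the minus strand and chr2:164833523-164833772 for Ctsa, which has another annotated start without the motif.
Ctsk: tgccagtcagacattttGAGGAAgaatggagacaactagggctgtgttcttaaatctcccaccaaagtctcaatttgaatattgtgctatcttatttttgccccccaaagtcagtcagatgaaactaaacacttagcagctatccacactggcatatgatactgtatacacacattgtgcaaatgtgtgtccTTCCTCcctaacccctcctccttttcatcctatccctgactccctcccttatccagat
Ctss: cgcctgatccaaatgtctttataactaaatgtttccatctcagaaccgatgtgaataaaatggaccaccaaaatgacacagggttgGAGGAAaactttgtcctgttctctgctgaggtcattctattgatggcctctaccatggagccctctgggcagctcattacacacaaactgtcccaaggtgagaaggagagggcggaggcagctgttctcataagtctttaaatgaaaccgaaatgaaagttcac
Ctsd: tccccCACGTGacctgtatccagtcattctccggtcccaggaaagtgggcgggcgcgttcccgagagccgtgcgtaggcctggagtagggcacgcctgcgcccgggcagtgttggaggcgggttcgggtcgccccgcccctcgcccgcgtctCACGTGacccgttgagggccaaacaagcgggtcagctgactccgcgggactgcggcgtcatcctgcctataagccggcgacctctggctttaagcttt
Ctsl: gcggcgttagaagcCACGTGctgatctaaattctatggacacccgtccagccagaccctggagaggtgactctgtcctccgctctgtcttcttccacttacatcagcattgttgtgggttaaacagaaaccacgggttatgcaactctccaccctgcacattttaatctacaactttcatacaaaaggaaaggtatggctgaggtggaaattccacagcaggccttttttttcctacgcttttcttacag
Ctsa: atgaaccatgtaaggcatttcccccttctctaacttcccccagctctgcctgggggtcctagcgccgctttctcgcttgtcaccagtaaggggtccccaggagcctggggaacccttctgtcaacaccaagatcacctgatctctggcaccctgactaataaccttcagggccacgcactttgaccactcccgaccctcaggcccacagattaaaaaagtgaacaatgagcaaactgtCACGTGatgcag
Over both strands, CACGTG was present in 6.02% of the 32851 mouse promoters of the same length and in 3 of the 7 members. GAGGAA was present in 23.3% of promoters and in 3 members, the third being Ctsc. The AP-1 motif TGANTCA, present in 6.75% of promoters, had no match in the members' windows. None of these motifs overlap each other where they occur here. A match describes the letters in the window and nothing about binding.

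Signals are given as log2 of the processed spot intensity minus the 75th percentile of the same array, so that 0 stands for that percentile and 1 unit for a doubling of signal. Values can be compared between arrays for 1 gene, not between genes, since each probe has its own brightness. The macrophage identity of the cells was checked with 12 markers (among them Csf1r, Adgre1, Cd68, Mertk and C1qa), which were well above background on every array. Their summed signal was 8.14 to 8.56 on tumor YFP+ arrays, 8.08 to 8.67 on tumor YFP- arrays, 8.35 to 8.72 on normal YFP+ arrays and 8.21 to 9.10 on normal YFP- arrays. In the tumor arrays, 0 of the 12 passed the test between YFP+ and YFP-, where 2.41% of all genes did. Between tissues 2 of 12 were lower in tumor in YFP+ cells, and 1 was higher and 1 lower in YFP- cells. Of all genes 6.52% were lower in YFP+ cells. In YFP- cells 7.62% were higher and 8.46% lower, so the marker counts there lay near those shares. Markers of other cell types were detected as well. Acinar markers summed to 1.74 to 3.16 in tumor YFP+ and 2.67 to 3.81 in tumor YFP- arrays, against 8.10 to 8.68 on normal YFP+ arrays and 8.49 to 9.63 on normal YFP- arrays, and 8 of 8 were lower in tumor in both populations. Their part in the tissue differences below was not tested. In sorted bulk samples, fewer cells of a type and less RNA per cell cannot be told apart.

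Tumor macrophages had more Ctsk, Ctse and Ctsl signal than macrophages of normal pancreas, and less Ctsa, in both the YFP+ and the YFP- cells. Ctsd and Ctsz were higher in tumor in the YFP- cells by the test, and Ctsb, Ctsc, Ctsh and Ctss passed in neither population. Every gene was tested with limma in 1 fit of the 16 arrays. A call needed a Benjamini-Hochberg adjusted p, taken over the 24307 genes, under 0.05. In YFP+ cells, 4 of 10 cathepsins passed (3 higher and 1 lower in tumor), against 12.3% of all tested genes (5.73% higher and 6.52% lower). In YFP- cells, 6 of 10 passed (5 higher and 1 lower), against 16.1% of all genes (7.62% higher and 8.46% lower). Over the mean of both populations 6 passed (Ctsa, Ctsd, Ctse, Ctsk, Ctsl and Ctsz), against 26.7% of all genes. Ctse, counted in each of these tissue comparisons, met the detection filter only through its tumor arrays. The median cathepsin difference, tumor minus normal, was 0.41 in YFP+ cells and 0.44 in YFP- cells, while the median over all genes was -0.07 in YFP+ and -0.19 in YFP- cells. Between YFP+ and YFP- cells, 0 of 10 cathepsins passed in tumor, where 2.41% of all genes did. In normal pancreas 0 of 10 passed, where 0.0206% of all genes did. At an unadjusted p under 0.05 there was 1 cathepsin in tumor (Ctse) and 0 in normal pancreas. The interaction, the YFP difference in tumor minus that in normal pancreas, passed for 0 of 10 cathepsins and for 0.103% of all genes, with 0 cathepsins at an unadjusted p under 0.05. The comparisons of YFP in a tissue and of tissues in a population use the same arrays, so they are not independent of each other.

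**Figure D1:**
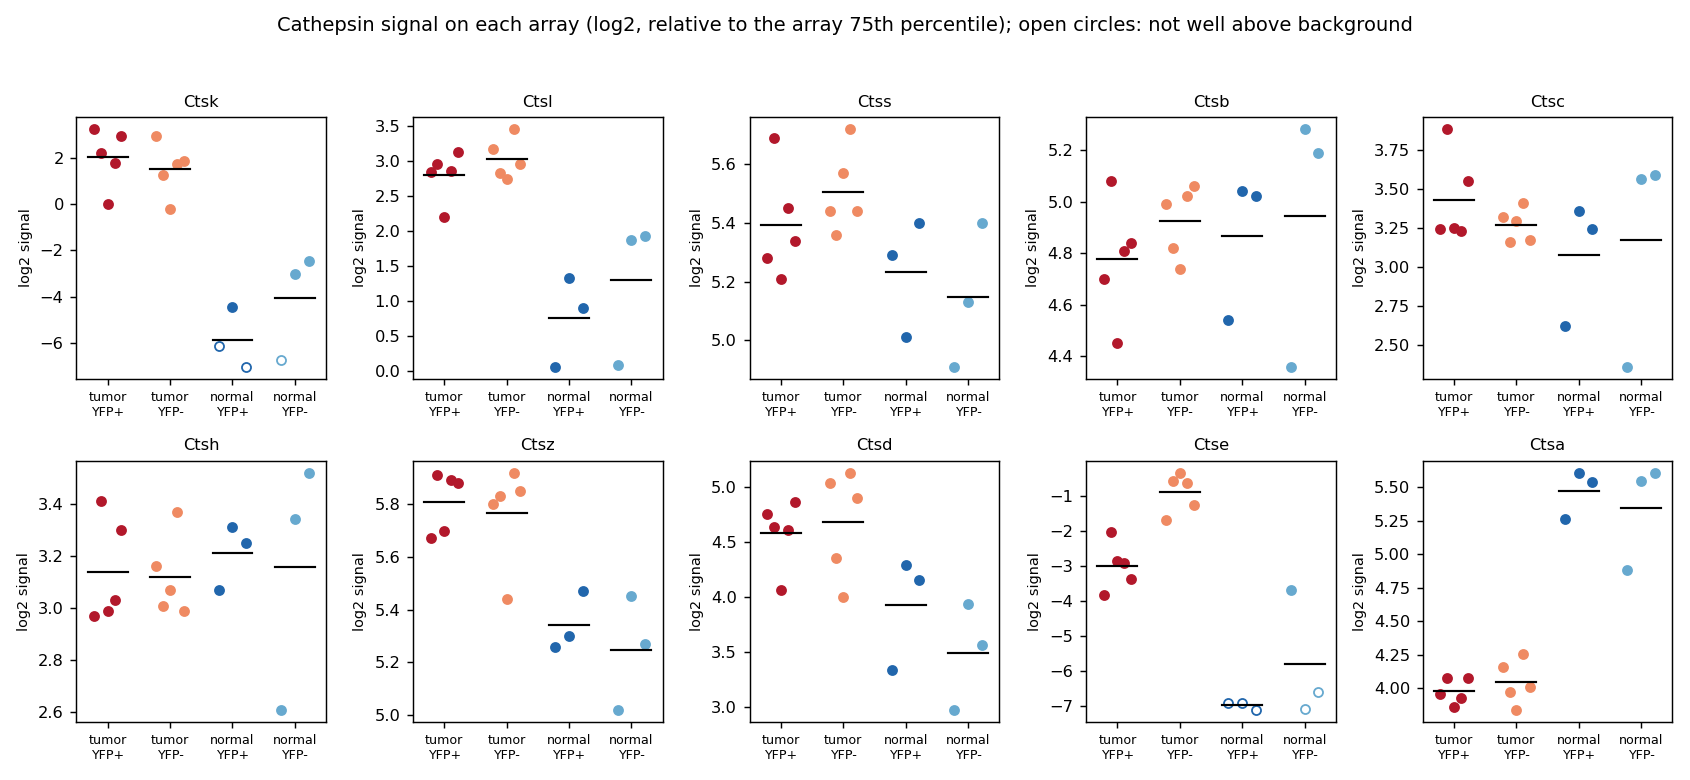
Log2 signal of each cathepsin on each of the 16 arrays, relative to the array's 75th percentile, by tissue (tumor, then normal pancreas) and YFP. Points are arrays, black lines are group means and open circles are spots not well above background. Each panel has its own vertical scale. All 10 tumor arrays lay above all 6 normal arrays for Ctsk and Ctsl, and below them for Ctsa.

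**Figure D2:**
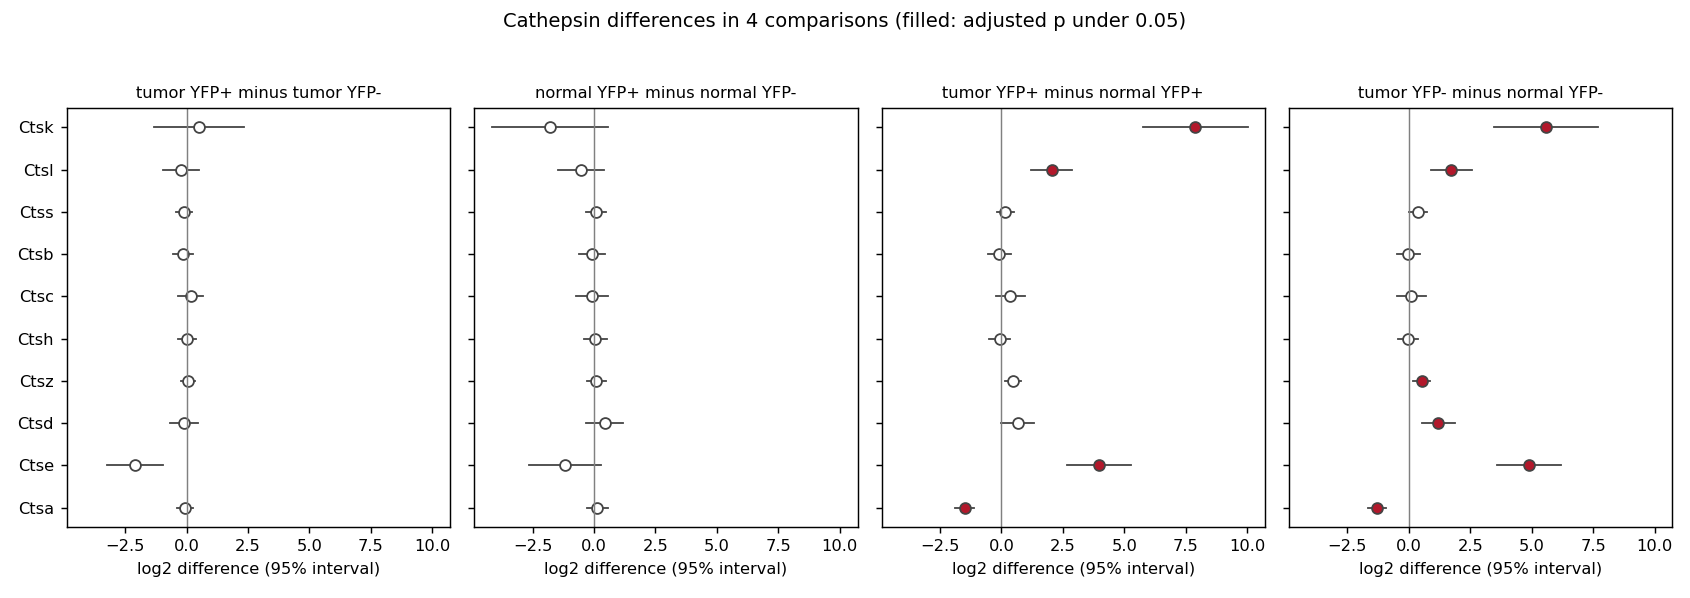
Log2 differences of the 10 cathepsins in 4 comparisons, with 95% intervals from the limma fit. Filled points passed the threshold of 0.05 after adjustment over all genes. The 2 comparisons of YFP+ with YFP- cells hold no filled point, and the tissue comparisons hold 4 in YFP+ and 6 in YFP- cells.

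Ctsk, the collagen-degrading cysteine cathepsin, was higher in tumor in both populations. Its probe lies on chr3:95313165-95313224 (mm9, plus strand). The log2 signal in tumor YFP+ arrays was 3.23, 2.21, 0.01, 1.79 and 2.94, and in tumor YFP- arrays 2.95, 1.24, -0.23, 1.75 and 1.88. In normal YFP+ arrays it was -6.13, -4.44 and -7.02, and in normal YFP- arrays -6.74, -3.00 and -2.46. All 10 tumor arrays were well above background and higher than every normal array. Only 1 of 3 normal YFP+ arrays and 2 of 3 normal YFP- arrays were well above background. The difference was 7.89 ± 0.99 in YFP+ cells (SE, n = 5 tumor and 3 normal arrays, adjusted p = 1.09e-04) and 5.58 ± 0.99 in YFP- cells (n = 5 and 3, adjusted p = 0.00142). Without the normal YFP- array numbered 23912 the difference in YFP- cells was 4.25 (adjusted p = 0.00603), and without the one numbered 23917 it was 6.39. Without the normal YFP+ array numbered 23916 the difference in YFP+ cells was 8.61. With array weights it was 4.75 in YFP- cells. Each population had 3 slides that held both its tumor and its normal arrays, not the same 3 for both populations. Within them the difference ran from 6.64 to 9.07 in YFP+ cells and from 3.69 to 8.61 in YFP- cells. With slide as a block it was 7.38 in YFP+ and 5.59 in YFP- cells. Of the 6 normal values 3 were not well above background, and the size of the difference moved with the background handling. With normexp background correction it was 4.98 in YFP+ and 4.03 in YFP- cells (adjusted p = 5.34e-05 and 3.10e-04), so no fold is given for Ctsk.

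Between the tumor populations, Ctsk overlapped widely. The difference of YFP+ minus YFP- was 0.51, with a 95% interval from -1.32 to 2.35 (adjusted p = 0.918). This fit pairs no arrays, and in it a difference of a few-fold either way was not resolved. Between arrays sharing a title number, which the labels do not tie to an animal, YFP+ minus YFP- was 0.27, 0.97, 0.24, 0.03 and 1.06. With the replicate number as a block, Ctsk likewise did not pass. The spread within each tumor group was wider than the fitted difference of 0.51, with an SD of 1.27 among YFP+ and 1.16 among YFP- arrays (n = 5 each). In normal pancreas, YFP+ minus YFP- was -1.80 with an interval from -4.17 to 0.57 (adjusted p = 0.775), from groups in which 3 of the 6 arrays were not well above background. The interaction was 2.31 ± 1.40 (adjusted p = 0.898).

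Fibroblasts also make cathepsin K, so the fibroblast and stellate cell markers were set beside it. In tumor, 10 of 12 such markers were lower in YFP+ than in YFP- cells, where 1.65% of all genes were lower. The median difference of the 12 markers was -4.03. Their summed signal was 2.14 to 3.17 on tumor YFP+ arrays, 5.93 to 6.67 on tumor YFP- arrays, 3.50 to 4.15 on normal YFP+ arrays and 2.92 to 6.16 on normal YFP- arrays. Every tumor YFP+ sum lay below every tumor YFP- and every normal YFP+ sum. Between tissues 1 of the 12 was higher and 1 lower in tumor in YFP+ cells, and 5 were higher and 0 lower in YFP- cells. Of all genes 5.73% were higher and 6.52% lower in YFP+ cells, so the counts there lay near those shares. In YFP- cells 7.62% of all genes were higher and 8.46% lower. Among the defining markers, Lum was on no tumor YFP+ array well above background, and Pdgfrb was on no normal YFP+ array. Within normal YFP- cells the array numbered 23912 had both the lowest fibroblast sum, 2.92, and the lowest Ctsk signal, -6.74. The other 2 arrays had sums of 5.31 and 6.16 and Ctsk at -3.00 and -2.46. The part of these cells in the Ctsk signal was not tested.

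**Figure D3:**
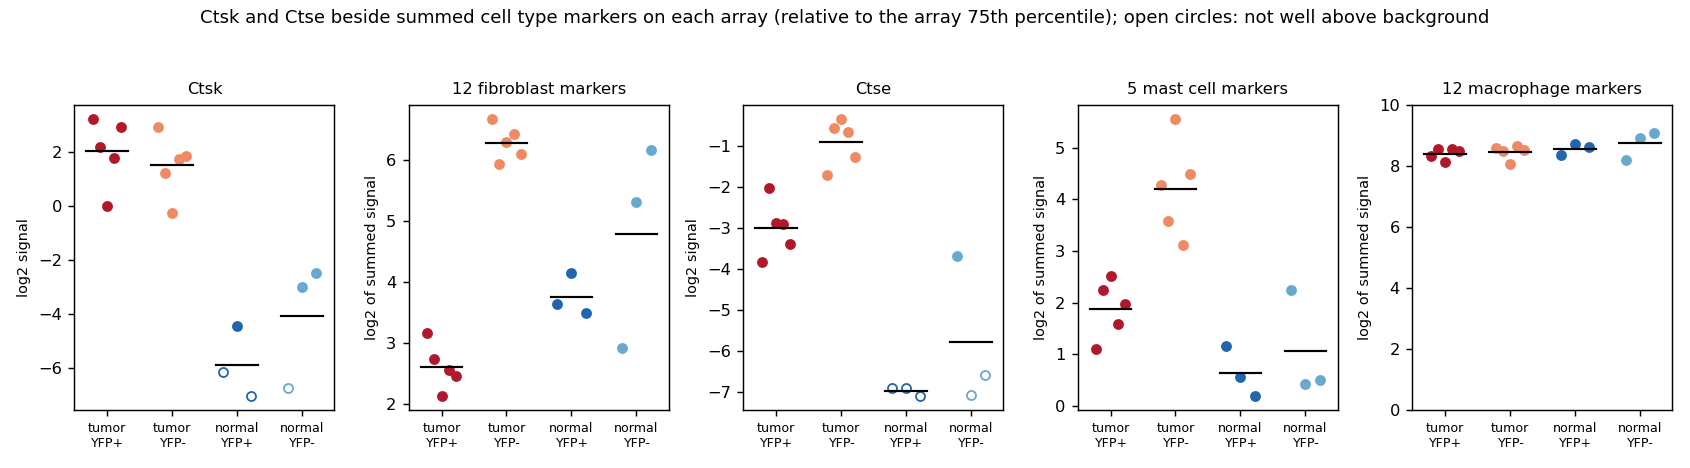
Ctsk and Ctse (log2 signal) beside the summed signal of 12 fibroblast, 5 mast cell and 12 macrophage markers (log2 of the sum), one point per array, with the tumor groups left of the normal groups. Black lines are group means, and open circles, used for Ctsk and Ctse only, are spots not well above background. Ctsk overlapped between the tumor populations, and the fibroblast sum was 2.14 to 3.17 in tumor YFP+ and 5.93 to 6.67 in tumor YFP- arrays. For Ctse and for the mast cell sum, every tumor YFP+ array lay below every tumor YFP- array.

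The 5 genes whose log2 signal followed that of Ctsk most closely over the 16 arrays were Tfec (Pearson r = 0.977), Htra3 (0.968), Slc3a2 (0.966), Slc7a2 (0.963) and Atp6v0d2 (0.961). The arrays share tissue groups, so these coefficients describe mostly the tumor and normal levels. Tfec, a transcription factor of the MiT family found in macrophages and osteoclasts, averaged 0.82 in tumor YFP+, 1.0 in tumor YFP-, -1.51 in normal YFP+ and -0.86 in normal YFP- cells. Atp6v0d2, a proton pump subunit of osteoclasts and some macrophages, averaged 1.34 in tumor YFP+ and 1.31 in tumor YFP- cells, and it was lower at -0.63 in normal YFP+ and -0.28 in normal YFP- cells. Slc7a2, a transporter of cationic amino acids, averaged 1.12 in tumor YFP+ and 1.29 in tumor YFP- while both normal populations were lower, at -3.28 in YFP+ and -3.27 in YFP- cells.

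Ctsl, a lysosomal endopeptidase with broad substrates, was the other cysteine cathepsin higher in tumor in both populations. Its probe lies on chr13:64465287-64465346 (mm9, minus strand). The log2 signal in tumor YFP+ arrays was 2.84, 2.95, 2.20, 2.86 and 3.13, and in tumor YFP- arrays 3.17, 2.82, 2.74, 3.45 and 2.96. In normal YFP+ arrays it was 0.06, 1.32 and 0.90, and in normal YFP- arrays 0.08, 1.87 and 1.93. The tissues did not overlap in either population. The difference was 2.04 ± 0.39 in YFP+ cells, a 4.12-fold higher signal (adjusted p = 0.00294), and 1.73 ± 0.39 in YFP- cells, 3.33-fold higher (adjusted p = 0.00778). Within slides it ran from 1.30 to 3.07 in YFP+ and from 0.88 to 2.89 in YFP- cells. Both arrays numbered 23912 were the lowest of their groups, and without the normal YFP- array of that number the difference in YFP- cells was 1.13 (adjusted p = 0.0297). Between YFP+ and YFP- cells Ctsl differed by -0.23 in tumor (95% interval -0.96 to 0.50) and by -0.54 in normal pancreas (-1.48 to 0.41).

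Ctss, the cathepsin best known for cleaving the invariant chain in antigen-presenting cells, showed little difference between the tissues. Its signal was 5.28, 5.69, 5.21, 5.45 and 5.34 in tumor YFP+, 5.44, 5.36, 5.57, 5.72 and 5.44 in tumor YFP-, 5.29, 5.01 and 5.40 in normal YFP+ and 4.91, 5.13 and 5.40 in normal YFP- arrays. The groups overlapped throughout. Tumor minus normal was 0.16 in YFP+ cells (95% interval -0.20 to 0.52, adjusted p = 0.645) and 0.36 in YFP- cells (0.00 to 0.72, adjusted p = 0.160). The intervals exclude a doubling of Ctss in either population. Ctsk, its neighbour on chromosome 3, had intervals from 5.77 to 10.02 in YFP+ and from 3.46 to 7.70 in YFP- cells. The Ctsk intervals do not cover the choice of background handling. With normexp correction the Ctsk difference in YFP+ cells was 4.98, below that interval.

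Ctsb, an abundant lysosomal endopeptidase and dipeptidyl carboxypeptidase, likewise did not pass in any comparison. It averaged 4.78 in tumor YFP+, 4.92 in tumor YFP-, 4.87 in normal YFP+ and 4.94 in normal YFP- arrays. Tumor minus normal was -0.09 in YFP+ (95% interval -0.56 to 0.38) and -0.02 in YFP- cells (-0.49 to 0.45). Ctsc, the dipeptidyl peptidase that activates granule serine proteases of neutrophils, mast cells and cytotoxic cells, differed by 0.35 in YFP+ (-0.23 to 0.94) and 0.10 in YFP- cells (-0.48 to 0.68). Ctsh, mainly an aminopeptidase, differed by -0.07 in YFP+ (-0.50 to 0.36) and -0.04 in YFP- cells (-0.46 to 0.39). For these 3 genes the intervals exclude a doubling or a halving in either tissue comparison. Between YFP+ and YFP- cells their differences ran from -0.15 for Ctsb to 0.16 for Ctsc in tumor, and from -0.10 for Ctsc to 0.05 for Ctsh in normal pancreas.

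Ctsz, a carboxypeptidase also called cathepsin X, was slightly higher in tumor. The signal was 5.67, 5.91, 5.70, 5.89 and 5.88 in tumor YFP+ arrays, against 5.26, 5.30 and 5.47 in normal YFP+ arrays, with no overlap. It was 5.80, 5.83, 5.44, 5.92 and 5.85 in tumor YFP- arrays, against 5.02, 5.45 and 5.27 in normal YFP- arrays, where the array numbered 23550 fell within the normal range. The difference was 0.47 ± 0.15 in YFP+ cells (adjusted p = 0.0643) and 0.52 ± 0.15 in YFP- cells (adjusted p = 0.032). The call in YFP- cells was lost with slide as a block (0.54, adjusted p = 0.0508) and without the normal YFP- array numbered 23912 (0.41, adjusted p = 0.126), among other single arrays.

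Ctsd, the main aspartic protease of lysosomes, had signals of 4.75, 4.63, 4.06, 4.61 and 4.86 in tumor YFP+ and 5.03, 4.35, 4.00, 5.13 and 4.90 in tumor YFP- arrays. In normal YFP+ arrays it had 3.33, 4.29 and 4.15, and in normal YFP- arrays 2.97, 3.93 and 3.56. The tissues overlapped in YFP+ cells and not in YFP- cells. Tumor minus normal was 0.66 ± 0.31 in YFP+ cells (adjusted p = 0.219) and 1.19 ± 0.31 in YFP- cells, a 2.29-fold higher signal (adjusted p = 0.018). The difference between those values, tested as the interaction, was -0.54 ± 0.44 (adjusted p = 0.921). A second Ctsd probe gave 0.66 in YFP+ and 1.18 in YFP- cells. Within slides the difference in YFP- cells ran from 0.79 to 1.94. Without the normal YFP- array numbered 23912 the difference in YFP- cells was 0.93 (adjusted p = 0.0873).

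Ctse, the other aspartic cathepsin, was higher in tumor in both populations, while its difference between the tumor populations did not pass the threshold. Its probe lies on chr1:133571990-133572049 (mm9, plus strand). The log2 signal in tumor YFP+ arrays was -3.84, -2.03, -2.87, -2.91 and -3.38, and in tumor YFP- arrays -1.70, -0.57, -0.34, -0.65 and -1.27. It was -6.90, -6.91 and -7.10 in normal YFP+ arrays and -3.69, -7.08 and -6.60 in normal YFP- arrays. All tumor arrays were well above background, while 0 of 3 normal YFP+ and 1 of 3 normal YFP- arrays (number 23912) were. Ctse thus met the filter of at least 3 arrays well above background only through its tumor arrays. Its tissue tests are not independent of that filter. In YFP+ cells the signal was at least 3.25-fold higher in tumor than in normal pancreas, a bound that sets the normal arrays at their lowest signal well above background (measured means -3.01 in tumor and -6.97 in normal cells, adjusted p = 5.79e-04). In YFP- cells, where 2 of 3 normal arrays gave only a bound, the fitted difference was 4.89 ± 0.61 (adjusted p = 8.62e-05). It was 5.94 without the normal YFP- array numbered 23912, 4.24 without the one numbered 23916 and 5.93 with array weights. With normexp background correction the tissue differences were 1.44 in YFP+ and 2.52 in YFP- cells (adjusted p = 0.00191 and 1.07e-05). Without that correction, the tissue differences within slides ran from 3.52 to 4.88 in YFP+ and from 2.42 to 6.03 in YFP- cells.

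The YFP+ and YFP- tumor arrays did not overlap in Ctse, all 5 YFP+ arrays being lower. The difference was -2.10 ± 0.53 (95% interval -3.24 to -0.96), a 4.28-fold lower signal in YFP+ cells. Its adjusted p of 0.0554 missed the threshold, and over 26 other settings it ran from 0.0024 to 0.148, with 10 settings past the threshold and 16 not. Its size over those settings ran from -2.34 to -1.39, the smallest with normexp background correction (adjusted p = 0.00304). Within the 4 slides it ran from -2.81 to -1.53, and with slide as a block it was -1.83 (adjusted p = 0.0829). In normal pancreas Ctse was not well above background in 5 of 6 arrays, and no fold is given there.

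Markers of other cell types were set beside Ctse. Of 5 mast cell markers, 4 (Cpa3, Tpsb2, Mcpt4 and Cma1) were lower in tumor YFP+ than in tumor YFP- cells, where 1.65% of all genes were lower. Between tissues 1 of 5 was higher in tumor in YFP+ cells and 5 of 5 in YFP- cells. Of all genes 5.73% were higher in YFP+ and 7.62% in YFP- cells. A count of 1 in a list of 5 lay near that share. The summed mast cell signal was 1.09 to 2.51 on tumor YFP+ arrays and 3.12 to 5.56 on tumor YFP- arrays. On normal arrays it was 0.19 to 1.16 in YFP+ and 0.43 to 2.24 in YFP- cells. The normal YFP- array with Ctse above background, numbered 23912, had the highest mast cell sum of its group, 2.24 against 0.43 and 0.50. It also had the highest neutrophil sum, 3.19 against 0.48 and 1.25. Neutrophil sums were 1.83 to 3.52 on tumor YFP+, 3.15 to 5.07 on tumor YFP- and 0.88 to 4.08 on normal YFP+ arrays. The normal YFP+ array with the sum of 4.08, also numbered 23912, had Ctse at -6.90, not well above background. Among tumor YFP- arrays, the lowest mast cell sum, 3.12 on 23551, went with the median Ctse, -0.65. The highest, 5.56 on 23550, went with the highest Ctse, -0.34. Ductal and epithelial markers were lower in tumor YFP+ than in tumor YFP- cells for 6 of 10 measured, beside the same 1.65% of all genes. Their sums were 2.19 to 2.77 on tumor YFP+ arrays and 4.17 to 4.94 on tumor YFP- arrays. On normal arrays they were 2.70 to 3.21 in YFP+ and 3.36 to 4.74 in YFP- cells. Fibroblast markers, given above, also ran lower in tumor YFP+ cells. The part of these cells in the Ctse signal was not tested.

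The 5 genes closest to Ctse over the 16 arrays were Mcpt2 (r = 0.959), a mast cell protease gene, Hdc (0.957), the histidine decarboxylase that makes histamine, Cxcr2 (0.957), a chemokine receptor of neutrophils, Mirt2 (0.956) and G0s2 (0.947), an inhibitor of triglyceride lipase. Mcpt2 averaged 0.42 in tumor YFP+, 2.52 in tumor YFP-, -6.82 in normal YFP+ and -5.42 in normal YFP- cells. Hdc averaged 0.10 in tumor YFP+ and 2.56 in tumor YFP- cells, and it was lower at -2.80 in normal YFP+ and -2.09 in normal YFP- cells.

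Ctsa, which protects and stabilises the lysosomal sialidase Neu1 and the galactosidase Glb1 in a complex, was the member lower in tumor. Its probe lies on chr2:164665023-164665082 (mm9, plus strand). The log2 signal was 3.96, 4.08, 3.86, 3.93 and 4.08 in tumor YFP+ and 4.16, 3.97, 3.84, 4.26 and 4.01 in tumor YFP- arrays. It was 5.26, 5.61 and 5.54 in normal YFP+ and 4.88, 5.55 and 5.61 in normal YFP- arrays. No tumor array reached any normal array. The difference was -1.49 ± 0.18 in YFP+ cells, a 2.81-fold lower signal (adjusted p = 7.81e-05), and -1.30 ± 0.18 in YFP- cells, 2.46-fold lower (adjusted p = 1.94e-04). A second, dimmer Ctsa probe was also lower in tumor, by a smaller difference of -0.78 in YFP+ and -0.89 in YFP- cells. Within slides the brighter probe differed by -1.68 to -1.18 in YFP+ and by -1.63 to -0.87 in YFP- cells. The partners of the complex were not lower. Neu1 was 0.72 higher in tumor in YFP+ (adjusted p = 0.0256) and 0.61 higher in YFP- cells (adjusted p = 0.0476), and Glb1 differed by 0.25 in YFP+ and 0.09 in YFP- cells without passing (adjusted p = 0.687 and 0.857).

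Within groups, the arrays that were lowest for 1 cathepsin were often lowest for others. Of the tumor arrays, both numbered 23550 were the lowest of their group for 6 of 10 members each, including Ctsk, at 0.01 in YFP+ and -0.23 in YFP- cells. Of the normal arrays, both numbered 23912 were often the lowest, in YFP+ cells for 7 and in YFP- cells for 9 of 10 members. The summed macrophage markers were also lowest of their groups on these 4 arrays, at 8.14 in tumor YFP+, 8.08 in tumor YFP-, 8.35 in normal YFP+ and 8.21 in normal YFP- cells. Without both arrays numbered 23912, the counts past the threshold were 4 in YFP+ and 4 in YFP- cells for tumor against normal pancreas, and 1 between the tumor populations (Ctse).

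Several inhibitors of cathepsins were also higher in tumor. Of 10 cystatins and stefins measured (of 16 listed), 6 were higher in tumor in YFP+ and 7 in YFP- cells, and 0 were lower in either, where 5.73% of all genes were higher in YFP+ and 7.62% in YFP- cells. The median difference was 1.21 in YFP+ and 1.30 in YFP- cells. Stfa2, an intracellular stefin of myeloid cells, was at least 6.25-fold higher in tumor YFP+ than in normal YFP+ cells (adjusted p = 1.35e-05). In YFP- cells Stfa2 was 3.07 higher in tumor (adjusted p = 1.24e-04), where 2 of 3 normal arrays were well above background. Cstdc4 was at least 40.5-fold higher in tumor YFP- than in normal YFP- cells (adjusted p = 7.79e-08). In YFP+ cells Cstdc4 was 3.04 higher in tumor (adjusted p = 1.41e-04). Between the normal populations Cstdc4 also passed, at least 3.05-fold higher in YFP+ cells (adjusted p = 0.0402), with 0 of 3 normal YFP- arrays well above background. Its interaction, which rests on those dim arrays, was -3.66 (adjusted p = 0.022). Cstdc5 was 3.79 higher in YFP+ (adjusted p = 6.36e-04), where 1 of 3 normal arrays was well above background, and 4.02 higher in YFP- cells (adjusted p = 3.44e-04). The stefin A cluster holds near-identical copies, so signal cannot be assigned with certainty to 1 of them. The calls of Stfa2, Stfa2l1, Stfa3, Cstdc4 and Cstdc5 may thus share signal and are not independent counts. Besides them, Cstb passed in YFP+ cells, and Cstb and Cst7 in YFP- cells. Cstb, the ubiquitous stefin B, was 0.74 higher in YFP+ (adjusted p = 0.0364) and 0.79 higher in YFP- cells (adjusted p = 0.0233). Cst7, cystatin F, an inhibitor that acts inside immune cells, differed by 1.07 in YFP+ cells without passing (adjusted p = 0.258) and was 2.01 higher in YFP- cells (adjusted p = 0.022). Cst3, the main secreted cystatin, differed by 0.18 in YFP+ and -0.21 in YFP- cells without passing (adjusted p = 0.645 and 0.472). Neutrophils also make stefins, and their marker sums were 1.83 to 3.52 on tumor YFP+ arrays, 3.15 to 5.07 on tumor YFP- arrays, 0.88 to 4.08 on normal YFP+ arrays and 0.48 to 3.19 on normal YFP- arrays; their part was not tested.

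Of 19 osteoclast genes measured other than Ctsk, 7 were higher in tumor in YFP+ and 10 in YFP- cells, 0 were lower, and the other 12 in YFP+ and 9 in YFP- cells did not pass. The share of all genes called higher was 5.73% in YFP+ and 7.62% in YFP- cells. The median difference was 0.72 in YFP+ and 0.92 in YFP- cells. Acp5, the tartrate-resistant acid phosphatase, was 4.87 ± 0.34 higher in YFP+ (adjusted p = 3.71e-07) and 5.17 ± 0.34 higher in YFP- cells (adjusted p = 1.93e-07). The kinase gene Src was 3.54 higher in YFP+ and 2.53 in YFP- cells (adjusted p = 3.71e-07 and 8.86e-06). Dcstamp, needed for fusion of osteoclasts and giant cells, was 2.16 higher in YFP+ and 3.70 in YFP- cells (adjusted p = 0.00122 and 1.11e-05). Of 18 genes of collagen uptake and breakdown by other enzymes, 9 were higher and 2 lower in tumor in each population, where 12.3% of all genes passed in YFP+ and 16.1% in YFP- cells. Mmp13, an interstitial collagenase, was 4.19 ± 0.36 higher in YFP+ cells (adjusted p = 3.00e-06), where 2 of 3 normal arrays were well above background. Mmp14, a membrane-bound collagenase, was 3.38 higher in YFP+ and 3.50 in YFP- cells (adjusted p = 3.71e-07 and 2.34e-07). Mmp12, the macrophage elastase, was 4.31 higher in YFP- cells (adjusted p = 7.23e-07). Genes given for 1 population are among its largest passing differences. In the interaction 0 of these 18 genes passed, where 0.103% of all genes did. Pepd, which releases proline from collagen dipeptides, was lower, with differences of -1.64 in YFP+ and -1.58 in YFP- cells (adjusted p = 4.14e-04 and 4.63e-04). Between the tumor populations 0 of these 18 were higher in YFP+ and 2 were lower: Mrc2, a collagen uptake receptor of fibroblasts and some macrophages (difference -4.55, adjusted p = 5.68e-04), and the integrin gene Itga2 (difference -1.33, adjusted p = 0.0292). Of all genes 0.757% were higher and 1.65% lower in tumor YFP+ than in tumor YFP- cells. The fibroblast markers given beside Ctsk were lower in the same YFP+ cells.

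**Figure D4:**
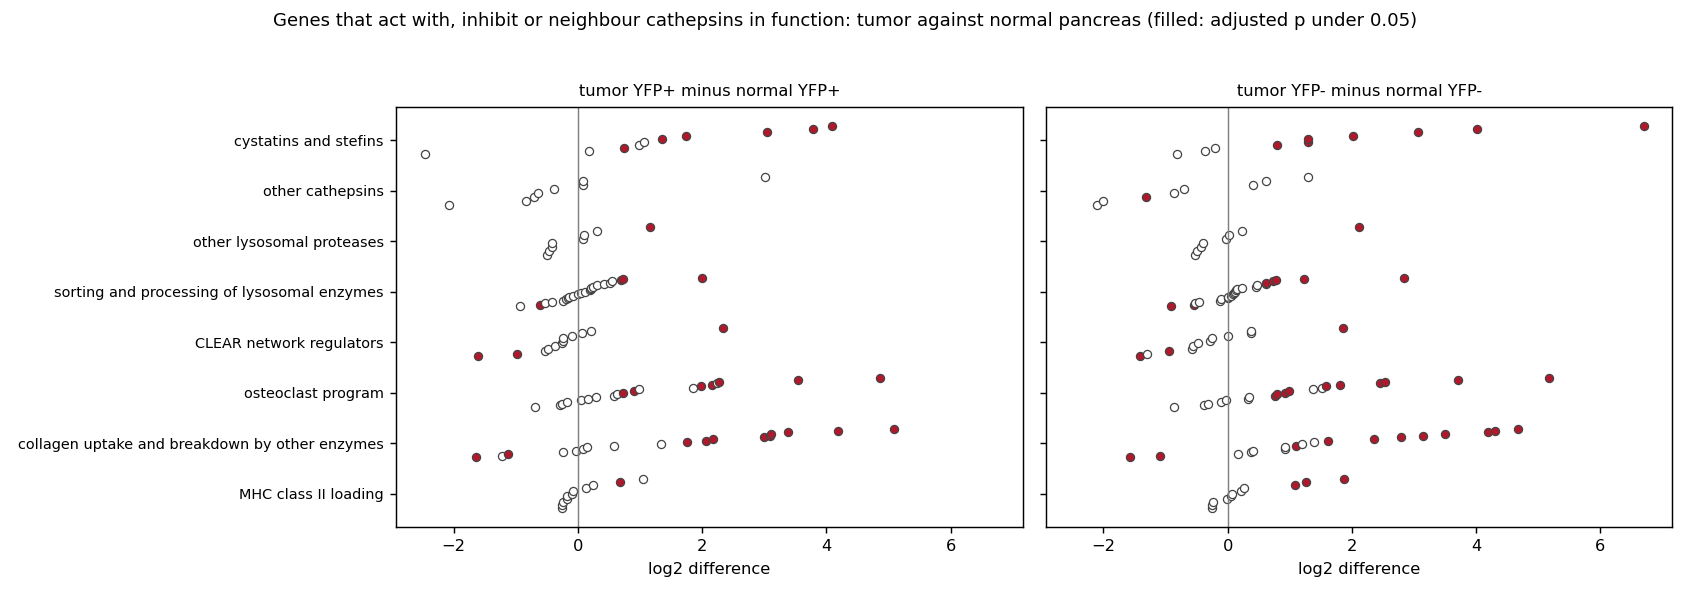
Log2 differences, tumor minus normal pancreas, of genes in 8 lists around the cathepsins, in YFP+ cells (left) and YFP- cells (right). Each point is a gene, and filled points passed the threshold of 0.05 after adjustment over all genes. Filled points lie on the higher side for cystatins and stefins and for the osteoclast list, and on both sides for sorting genes, CLEAR regulators and collagen breakdown.

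Of 23 genes of enzyme sorting and processing, 3 were higher and 1 lower in tumor in YFP+ cells, and 5 were higher and 2 lower in YFP- cells. The share of all genes called in either direction was 12.3% in YFP+ and 16.1% in YFP- cells, so the 4 of 23 in YFP+ cells lay near it. M6pr, the cation-dependent mannose 6-phosphate receptor, was 0.69 higher in YFP+ and 0.77 in YFP- cells (adjusted p = 0.0193 and 0.00884), and the sorting receptor gene Sorl1 was 2.0 higher in YFP+ and 2.84 in YFP- cells (adjusted p = 9.74e-06 and 2.46e-07). Lgmn, the asparaginyl protease that matures several cathepsins, differed by 0.31 in YFP+ and 0.23 in YFP- cells without passing (adjusted p = 0.447 and 0.496). Of 12 regulators of the CLEAR network, the lysosomal gene program run by Tfeb and its relatives, 1 was higher and 2 lower in each population, beside the same shares of all genes. Tfec was 2.33 higher in YFP+ and 1.86 in YFP- cells (adjusted p = 2.15e-04 and 0.00107), and Mcoln1, the lysosomal calcium channel, was lower, with differences of -1.61 in YFP+ and -1.41 in YFP- cells (adjusted p = 5.44e-04 and 0.00126). Of 8 other lysosomal proteases 1 passed, the aspartic protease gene Napsa, 1.16 higher in YFP+ and 2.11 in YFP- cells (adjusted p = 0.0487 and 0.00103). Of 8 other cathepsins measured (of 13 listed), 0 passed in YFP+ cells and 1 in YFP- cells, Ctsf, lower in tumor (difference -1.31, adjusted p = 0.0323). The counts in these 2 lists of 8 lay near the shares of all genes, 12.3% in YFP+ and 16.1% in YFP- cells.

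Among 11 genes of MHC class II loading, where Ctss and Ctsl act on the invariant chain, 1 was higher in tumor in YFP+ and 3 in YFP- cells, and 0 were lower. Of all genes 5.73% were higher in YFP+ and 7.62% in YFP- cells, so the count in YFP+ cells lay near that share. Ifi30, the thiol reductase of antigen processing, was 0.68 ± 0.13 higher in YFP+ (adjusted p = 0.00312) and 1.09 ± 0.13 in YFP- cells (adjusted p = 6.45e-05). Cd74, the invariant chain itself, differed by -0.17 in YFP+ and -0.01 in YFP- cells without passing (adjusted p = 0.642 and 0.962). Between YFP+ and YFP- cells of tumor, 0 genes of this list, of the sorting genes, of the cystatins and stefins and of the osteoclast genes passed the test. Of all genes 2.41% passed there, so a count of 0 in lists of this size lay near that share.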

How the data were processed

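Macrophages were sorted into lysis buffer, and RNA was extracted, amplified and labelled with Cy5, per the labels' protocols. The deposited scanner files hold red-channel intensity values from Agilent Feature Extraction 11.5.1.1, per the submitters' processing notes, and their processed signal is background subtracted, per the file headers. The authors' deposited table of processed values is on the log2 scale; its columns have equal sorted values within 0.0069, so it appears quantile normalized, a step not given in the sources used here. It served as an alternative.

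The intensity values were taken to log2 and scaled by each array's 75th percentile, which ran from 2167 to 3388 intensity units. Outlier spots (140 to 353 per array) were dropped and the spots of a probe averaged. Of all spots on an array, 64.9% to 75.4% were well above background, and 0 were saturated; the number of arrays limits the precision. A probe was kept when well above background on at least 3 of 16 arrays. The brightest probe stood for a gene, which gave 24307 genes, and the 10 cathepsins all passed that filter. Ctse passed it through its tumor arrays. The 4 group means were fitted with limma 3.58.1 in R 4.3.3 (lmFit and eBayes, two-sided, Benjamini-Hochberg over all genes). Tables were made with pandas 2.3.3 in Python 3.11.15. The fit was tested on simulated data.

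Samples were grouped by tissue and cell type labels. Each slide held 4 arrays and served as a batch. Alternatives were normexp background correction (offset 50), quantile normalization, the deposited values, other filters, the mean of a gene's probes, slide and replicate number as blocks, array weights, and leaving out each array; leaving out both arrays numbered 23912 was chosen after seeing the data. All members are named, with the genes that act directly on a cathepsin, up to 4 of the largest passing differences per list and the 5 genes most like Ctsk and Ctse. The members and lists were chosen with earlier results of these data known. Probe positions are the files' own, on mm9. Promoters are from RefSeq, GRCm38.p6.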

Additional observations from a re-analysis of the deposited data

Results flagged for a closer look

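Ctsz in tumor YFP- cells had 1 array far from the others of its group: the array numbered 23550 had a log2 signal of 5.44, and the nearest of the other 4 had 5.80, a gap of 0.757 of the group's whole range. Chance marks about 1 in 20 such groups, and 20 groups of 5 arrays were looked at. The same array had the lowest summed macrophage markers of its group, 8.08. Its part in the value was not tested.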

How the results depend on the processing

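Over 60 single-gene differences and 26 settings, 1537 of 1560 values stayed on their side of the threshold, 14 passed it newly, 9 no longer passed, and 0 of those past it changed sign. The count of cathepsins past the threshold between tumor YFP+ and YFP- cells was 0, and it became 1 (Ctse) with quantile normalization, normexp background correction, the deposited values, the filter by all arrays of 1 group, the replicate block, array weights and without both arrays numbered 23912. It ran from 0 to 1 with single arrays left out, and was 1 without tumor YFP+ 23548, normal YFP- 23912 or normal YFP- 23916. The cause was not tested. For tumor against normal pancreas the count ran from 4 to 5 in YFP+ and from 4 to 7 in YFP- cells, and it was 6 throughout over the mean of both. The count stayed 0 in every setting between the normal populations and for the interaction.

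Of the calls in YFP- cells, Ctsd was lost without normal YFP- 23912 (adjusted p = 0.0873) and without both arrays of that number (0.0636). Ctsz was lost with slide as a block (0.0508), without both arrays numbered 23912 (0.139) and without 5 single arrays in turn (tumor YFP- 23547, 23548 and 23551, normal YFP- 23912 and 23917). Ctss passed with array weights (0.37, adjusted p = 0.0489). In YFP+ cells Ctsz passed with array weights (adjusted p = 0.0304), without tumor YFP- 23550 (0.0465) and without normal YFP- 23912 (0.0497).

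Counts over all genes moved more. Between the normal populations 5 genes passed, against 1150 with array weights, 338 without normal YFP- 23912, 227 without both of that number, 16 with quantile normalization, 15 with the deposited values, 10 with no filter, 2 with slide as a block and 0 with the replicate block or normexp. Array weights gave 4498 for YFP+ and 9322 for YFP- cells between tissues, against 2978 and 3909, and leaving out normal YFP- 23916 gave 2429 in YFP- cells. For the interaction 25 passed, and the range was 8 to 352.

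Samples of both populations share numbers in their titles. Deviations of same-numbered samples correlated across genes at 0.314, 0.224, 0.0568, -0.188 and -0.290 in tumor and at 0.274, 0.134 and -0.0154 in normal pancreas, so the numbers were not taken as pairs. With the replicate block, Ctse between the tumor populations had an adjusted p of 0.0458 (difference -2.10), and the block changed no other cathepsin call. Low signal limits Ctse and Ctsk in normal pancreas, where spots lie near background.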
